A study of Mus musculus with 7 samples.

Results

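The Wnt ligands, receptors and modulators expressed in mouse skin papillomas were examined by RNA-seq. The genes were chosen by symbol, namely the Wnt, Frizzled (*Fzd*), *Sfrp*, *Dkk* and *Rspo* families together with *Lgr5*, *Lrp5*, *Lrp6*, *Ror1*, *Ror2*, *Ryk*, *Wif1*, *Ctnnb1*, *Tcf7*, *Lef1* and *Axin2*. The rule found 52 of the 23284 gene symbols listed for each papilloma. The rule uses names and no measured value, although it was set with earlier results of these data known.

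Papillomas were raised on the skin of C57Bl/6 mice with the carcinogen DMBA followed by the tumor promoter TPA, and 1 papilloma from each of 7 mice was sequenced. All mice carried *tetO-Nanog*, a *Nanog* cDNA under a doxycycline-responsive promoter that sits downstream of *Col1a1*, and all drank 2 mg/ml doxycycline (DOX) during the protocol. The 3 TG mice also carried *K5-rtTA*, in which the bovine keratin 5 promoter drives the reverse tetracycline transactivator in keratinocytes of stratified epithelia. Their 4 CTR littermates lacked the transactivator, so that transgenic *Nanog* was expected in TG keratinocytes but in no other cells of the tumor. Papillomas were taken when the protocol ended or earlier, where a mouse had reached the humane endpoint, and the time of each is not given. The length of DOX treatment may therefore differ between papillomas and between groups. The question put to the data was how the Wnt system of TG papillomas differed from that of CTR papillomas. Expression was given as FPKM, read fragments scaled to transcript length and to the reads mapped in the library, which allows levels to be compared between genes.

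Wnt proteins are secreted, lipid-modified ligands that bind Frizzled receptors on the cell surface. In the canonical branch LRP5 or LRP6 joins the receptor, beta-catenin escapes destruction and acts in the nucleus with TCF and LEF factors. In the non-canonical branches, which use receptors such as ROR2 and RYK, signals pass to cell polarity and calcium without beta-catenin. In skin, canonical signaling is known for hair follicle formation and follicle stem cells.

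*Nanog* lay between 2.70 and 12.7 FPKM in CTR and between 36.9 and 66.9 FPKM in TG papillomas, where reads of the transgene and the endogenous gene were not separated. The papilloma TG 3 stood apart from the other 6. Its median FPKM over gene symbols was 1.14, against 0.539 to 0.673 in the others. It had 65 entries with a failed estimate, against 17 to 34. Its correlations with the others across genes, on log2(FPKM + 0.5), were 0.903 to 0.937, against 0.945 to 0.977 for other pairs. Its summed FPKM of 10 skeletal muscle markers was 729.5, against 1.81 to 5.39 in the others, and that of 10 dermal fibroblast markers was 726.6, against 86.5 to 145.5. The first list was highest in TG 3 for 10 of 10 markers and the second for 9 of 10. *Adipoq*, *Plin1*, *Cidec* and *Lep*, which define fat cells, lay between 0.431 and 3.34 FPKM in TG 3 and were listed at 0 in the 4 CTR papillomas. All 7 adipocyte markers together summed to 1718 FPKM in TG 3 and to 1376 to 3229 FPKM in the others. *Fabp4* made up nearly all of each sum, with 1680 FPKM in TG 3. Of the 7 markers 6 were highest in TG 3, and *Fabp4* was not. The sums in TG 3 and in the others were 37.0 against 10.2 to 24.998 FPKM for 7 endothelial markers and 136.2 against 43.3 to 74.5 FPKM for 8 immune markers. 10 keratinocyte markers summed to 18421 FPKM in TG 3, to 37335 and 29667 FPKM in TG 1 and TG 2, and to 23251 to 26464 FPKM in CTR papillomas, so that TG 1 and TG 2 also lay outside the CTR range. Single markers did not all follow this sum. In TG 2 *Krt1*, *Krt10* and *Krt16* exceeded every CTR value, and the other markers of the list lay within the CTR range. *Krt1* was 3309 FPKM in TG 2 and 187 to 807 FPKM in CTR papillomas, and *Krt10* was 3133 against 917 to 1440 FPKM. *Krt5*, *Krt15* and *Krt17*, 3 of the 10, were highest in TG 3. Members are therefore given with and without TG 3, and the part of the non-epithelial tissue in each result was not tested. In bulk tissue, fewer cells of a type and less RNA per cell cannot be told apart.

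Of the 52 members, 48 had a value above 0 in at least 1 papilloma, and 28 averaged 0.5 FPKM or more across the 7 papillomas, the minimum for the test. *Ctnnb1*, which encodes beta-catenin, was the most abundant with a mean of 134.5 FPKM, and *Wnt4* followed among the remaining members with 34.5 FPKM. *Wnt1*, *Wnt8a*, *Wnt8b* and *Dkk4* were listed at 0 in all 7 papillomas. The members just inside the minimum of 0.5 FPKM were *Fzd3* with a mean of 0.514 and *Wnt11* with 0.535 FPKM. *Wnt16* with 0.440 and *Dkk2* with 0.414 FPKM lay just outside it. *Fzd6* passed the minimum but carried a failed estimate in 2 papillomas, so that 27 members entered the test of TG against CTR.

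**Figure D1:**
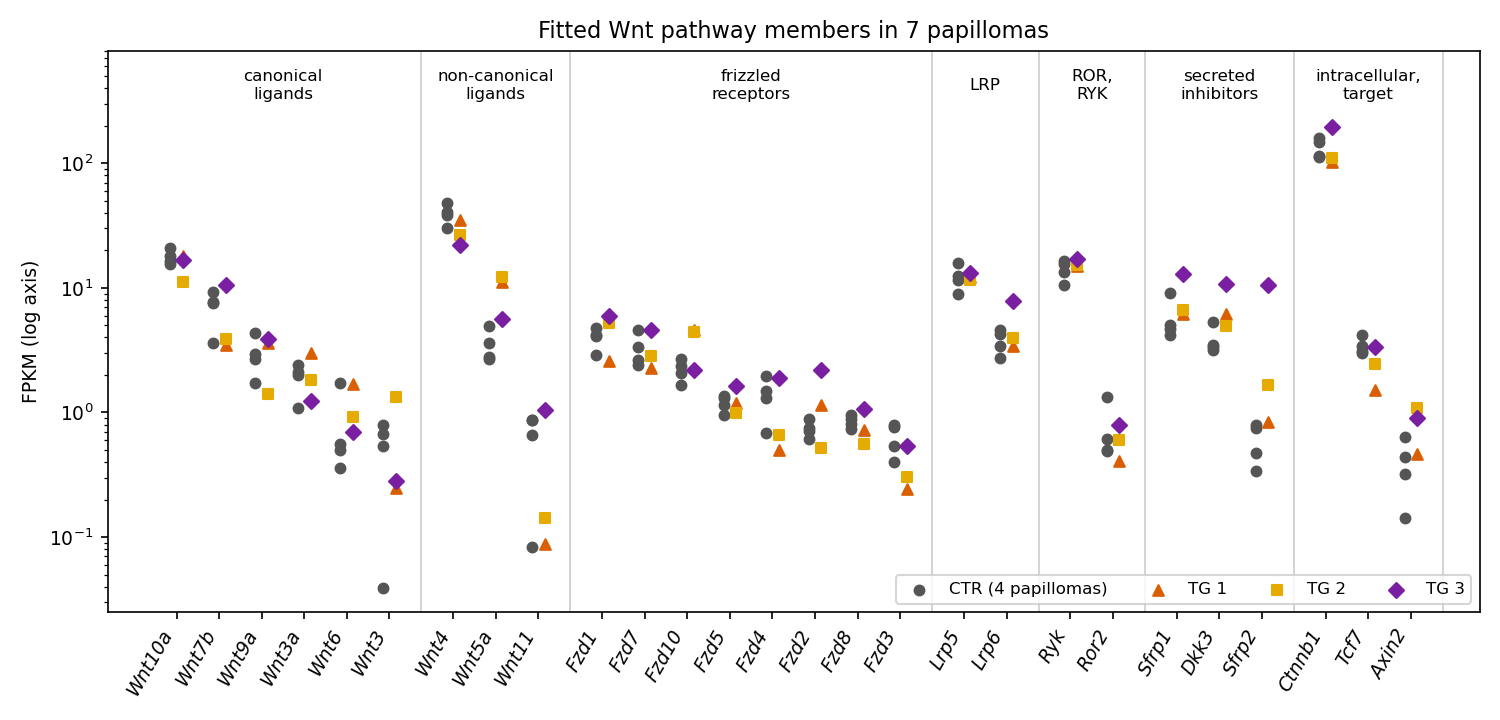
FPKM on a log axis of the 27 members that entered the test, grouped by role, with 1 point for each of the 4 CTR papillomas (circles), TG 1 (triangles), TG 2 (squares) and TG 3 (diamonds). *Wnt5a* and *Sfrp2* are the members whose 3 TG points all lie above the 4 CTR points, and *Sfrp2* reaches 10.5 FPKM in TG 3.

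No member passed the test over all genes. In limma on log2(FPKM + 0.5), with p-values adjusted by the Benjamini-Hochberg method over 12299 genes, 0 of 27 members were higher and 0 were lower in TG at adjusted p under 0.05, and the background over all genes was 0% in each direction. At unadjusted p under 0.05, *Wnt5a*, *Dkk3*, *Sfrp2* and *Fzd10* were higher in TG, which makes 4 of 27 members (14.8%) against 4.86% of all genes. *Wnt4* was the 1 member lower (3.70%), against 1.96% of all genes. The 3 TG values lay above all 4 CTR values for *Wnt5a* and *Sfrp2*, 2 of 27 members (7.41%) against 4.93% of genes, and below them for 0 members against 2.23% of genes. The log2 difference was above 0 for 15 of 27 members (55.6%), against 60% of genes. Its median was 0.04 over the members and 0.06 over all genes, and turned to -0.01 over the members with upper-quartile scaling and to -0.04 with quantile normalization.

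The 19 Wnt ligands summed to between 56.4 and 91.0 FPKM in CTR and between 61.1 and 78.6 FPKM in TG papillomas. *Wnt4*, *Wnt10a*, *Wnt7b* and *Wnt5a* made up between 85.8% and 92.4% of that sum in every papilloma. The total overlapped between the groups, whereas the shares of *Wnt4* and *Wnt5a* within it did not. *Wnt4*, a ligand counted here with the non-canonical branch, took 53.9%, 52.7%, 53.1% and 49.97% of the ligand sum in CTR 1 to CTR 4. In TG 1, TG 2 and TG 3 it took 44.5%, 43.7% and 34.2%. *Wnt5a*, the prototype ligand of the non-canonical branch, took 4.76%, 3.81%, 3.97% and 6.09% in CTR and 14.3%, 19.9% and 8.80% in TG papillomas. *Wnt4* was thus 11.7 ± 2.57 times as abundant as *Wnt5a* in CTR (SD, n = 4) and 3.06 ± 0.843 times in TG papillomas (SD, n = 3). The ratio was between 8.20 and 13.8 in CTR and between 2.20 and 3.89 in TG. The shares and the ratio were computed after *Wnt5a* and *Wnt4* were known to differ, and no test was made of them. The shares are not independent, since more *Wnt5a* in the sum lowers the share of *Wnt4*. *Wnt4* FPKM itself overlapped between the groups.

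**Figure D2:**
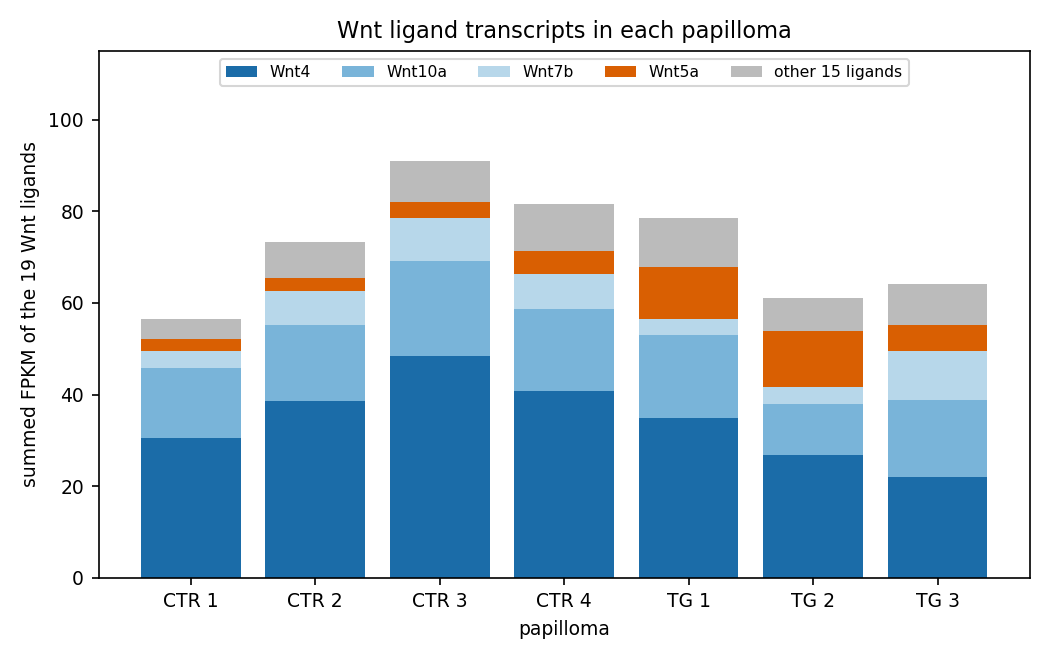
Summed FPKM of the 19 Wnt ligands in each papilloma, stacked as *Wnt4*, *Wnt10a*, *Wnt7b*, *Wnt5a* and the other 15 ligands, with CTR papillomas at the left and TG papillomas at the right. The *Wnt4* part is 49.97% or more of the bar in each CTR papilloma and 44.5% or less in each TG papilloma, and the *Wnt5a* part is 14.3% in TG 1 and 19.9% in TG 2.

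*Wnt5a* (chr14:28505473-28525515, GRCm38) had 2.68, 2.79, 3.61 and 4.97 FPKM in CTR 1 to CTR 4, and 11.2, 12.1 and 5.65 FPKM in TG 1 to TG 3. Every TG papilloma lay above every CTR papilloma, with TG 3 nearest to CTR 4. The mean was 3.51 ± 1.06 FPKM in CTR (SD, n = 4) and 9.68 ± 3.52 FPKM in TG (SD, n = 3), 2.75 times the CTR mean. The log2 difference was 1.31 with a standard error of 0.30 (limma, adjusted p = 0.538), and a 2-sided exact permutation test over the 35 splits of the papillomas gave p = 0.0286, the smallest the design allows. The confidence intervals that Cufflinks gives each value, which cover the error of 1 library only, still overlapped, with a lower bound of 5.05 FPKM in TG 3 and an upper bound of 5.52 FPKM in CTR 4. Without TG 3 the difference was 1.64 (limma, adjusted p = 0.0637), and with each papilloma weighted by an estimate of its quality it was 1.46 (limma, adjusted p = 0.0409, within a range of 0.0409 to 0.999 over all alternatives). TG 1 and TG 2, where *Wnt5a* was highest, were also the papillomas with the highest keratinocyte marker sums. In TG 2 only *Krt1*, *Krt10* and *Krt16* of these markers exceeded every CTR value. The part of the marker sums in the *Wnt5a* difference was not tested.

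*Wnt4* (chr4:137277635-137299501) had 30.4, 38.6, 48.3 and 40.8 FPKM in CTR and 34.9, 26.7 and 21.9 FPKM in TG papillomas. TG 2 and TG 3 lay below all CTR values, and TG 1 lay within their range. The means were 39.5 ± 7.38 FPKM (SD, n = 4) and 27.9 ± 6.57 FPKM (SD, n = 3). On the log2 scale the difference was -0.50 with a standard error of 0.22 (limma, unadjusted p = 0.0448, adjusted p = 0.725), and the exact permutation test gave p = 0.0857. Without TG 3 it was -0.35.

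*Wnt11*, another ligand of the non-canonical branch, split the papillomas regardless of genotype. It had 0.656, 0.876 and 0.865 FPKM in CTR 1, CTR 3 and CTR 4 and 1.04 FPKM in TG 3, but 0.0837 FPKM in CTR 2, 0.0876 in TG 1 and 0.142 in TG 2. *Wnt5b* stayed at 0.416 FPKM or lower in every papilloma. Non-canonical ligands together took 56.8% to 59.98% of the ligand sum in CTR and 59.1%, 64.0% and 45.2% in TG 1, TG 2 and TG 3, and so overlapped between the groups.

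Among the 15 canonical ligands, *Wnt10a* (chr1:74792019-74804175) was the most abundant, with 15.4, 16.5, 20.8 and 17.9 FPKM in CTR and 18.1, 11.1 and 16.9 FPKM in TG papillomas. The groups overlapped, and the log2 difference was -0.22 (limma, adjusted p = 0.891). *Wnt7b* had 3.61, 7.62, 9.24 and 7.68 FPKM in CTR and 3.51, 3.87 and 10.6 FPKM in TG papillomas. It was lowest in TG 1 and highest in TG 3, so that its log2 difference of -0.31 (limma, adjusted p = 0.937) became -0.78 without TG 3 (adjusted p = 0.487). *Wnt9a* lay between 1.73 and 4.35 FPKM in CTR and between 1.40 and 3.91 FPKM in TG, with a log2 difference of -0.02. Of the 15 canonical ligands, 6 entered the test, and 0 had an unadjusted p under 0.05, against 4.86% of all genes higher and 1.96% lower. The log2 differences of these ligands lay between -0.31 and 0.38.

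Several canonical ligands lie close together in the genome but differed widely in level. *Wnt10a* and *Wnt6* are separated by 6699 bases on chromosome 1, and their means were 16.7 and 0.922 FPKM. *Wnt3a* and *Wnt9a*, 16178 bases apart on chromosome 11, were nearer to each other with 1.96 and 2.95 FPKM. *Wnt1* and *Wnt10b*, 11706 bases apart on chromosome 15, had 0 and 0.245 FPKM. *Wnt3* and *Wnt9b*, 24353 bases apart on chromosome 11, had 0.558 and 0.00724 FPKM.

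The Frizzled receptors, the main Wnt receptors, were led by *Fzd6*, a receptor known for its part in hair orientation. *Fzd6* had 17.7, 12.4 and 15.5 FPKM in CTR 1, CTR 2 and CTR 4 and 12.7 and 17.0 FPKM in TG 1 and TG 2. Its values of 10.9 FPKM in CTR 3 and 14.9 FPKM in TG 3 were marked as failed estimates, and *Fzd6* was left out of the test. The usable values of both groups overlapped. The other 9 Frizzled receptors together summed to 12.3 to 16.6 FPKM in CTR and 13.4 to 20.1 FPKM in TG papillomas.

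*Fzd1* had 4.77, 4.19, 2.87 and 4.11 FPKM in CTR and 2.57, 5.21 and 5.96 FPKM in TG papillomas, a log2 difference of 0.13 (limma, adjusted p = 0.968) with groups that overlapped. *Fzd7* lay between 2.41 and 4.61 FPKM in CTR and between 2.29 and 4.55 FPKM in TG, with a log2 difference of -0.01. *Fzd10* (chr5:128601106-128604093) had 2.07, 1.67, 2.34 and 2.67 FPKM in CTR 1 to CTR 4, and 4.56, 4.46 and 2.18 FPKM in TG 1 to TG 3. TG 1 and TG 2 also had the highest keratinocyte marker sums, with only *Krt1*, *Krt10* and *Krt16* above every CTR value in TG 2. For *Fzd10* both lay above all CTR values and TG 3 lay among them, as the plots of single members by papilloma show. On the log2 scale the difference was 0.61 with a standard error of 0.27 (limma, unadjusted p = 0.0471, adjusted p = 0.729), and the exact permutation test gave p = 0.114. Without TG 3 it was 0.91 (limma, adjusted p = 0.146).

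*Fzd3*, *Fzd4* and *Fzd8*, named after their values were seen, were lower in both TG 1 and TG 2 than in any CTR papilloma and within or above the CTR range in TG 3. Of all genes tested without TG 3, 9.03% likewise had TG 1 and TG 2 below all CTR values. *Fzd4* had 0.503 and 0.660 FPKM in TG 1 and TG 2, 1.89 FPKM in TG 3, and 0.680 to 1.97 FPKM in CTR papillomas. *Fzd3* had 0.245 and 0.304 FPKM in TG 1 and TG 2, 0.540 FPKM in TG 3, and 0.398 to 0.794 FPKM in CTR papillomas. *Fzd8* had 0.717 and 0.559 FPKM in TG 1 and TG 2, 1.06 FPKM in TG 3, and 0.741 to 0.963 FPKM in CTR papillomas. *Fzd9* did not exceed 0.156 FPKM. Over all 7 papillomas 1 of the 8 Frizzled receptors tested, *Fzd10*, was higher in TG at unadjusted p under 0.05, against 4.86% of all genes.

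**Figure D3:**
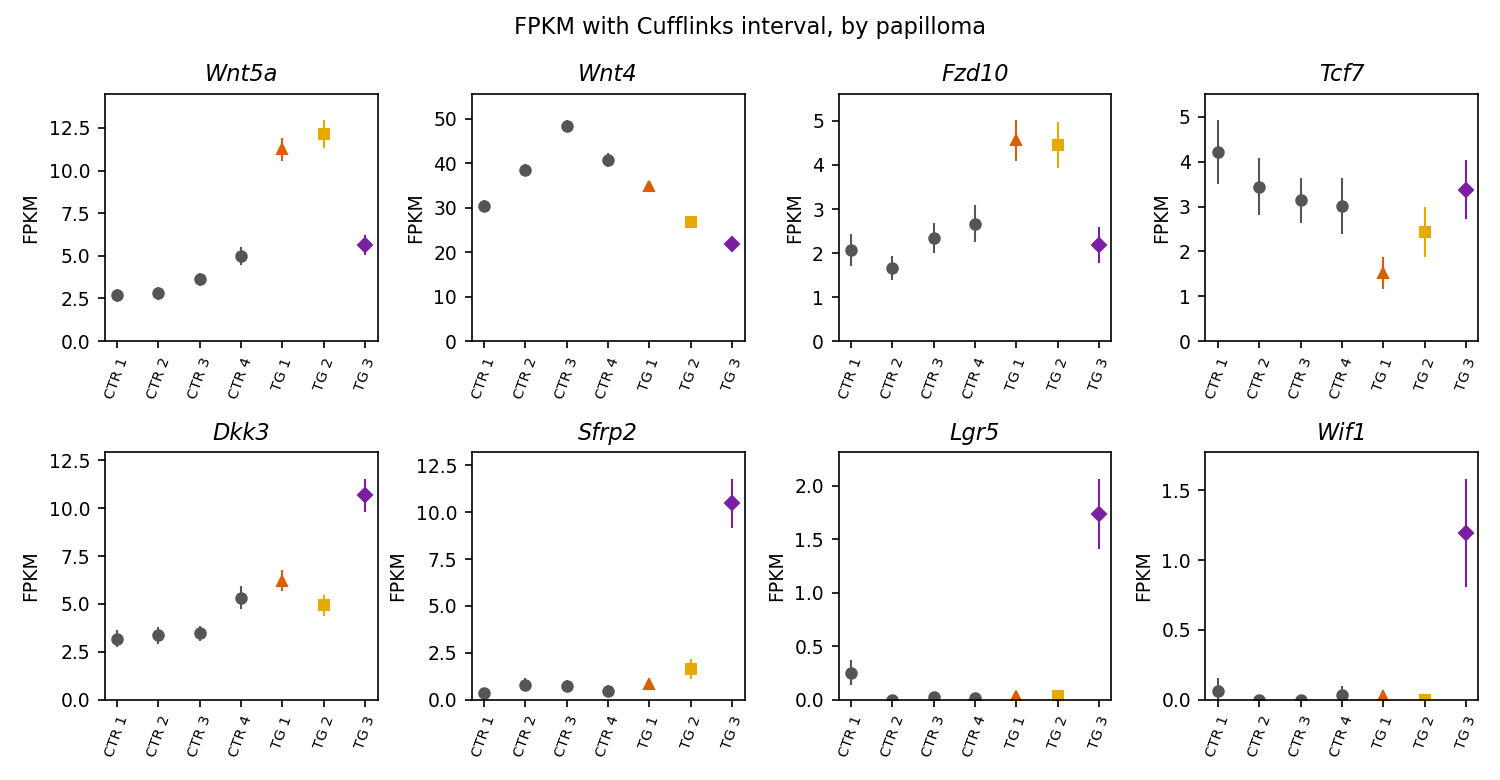
FPKM of 8 members in each papilloma, with CTR 1 to CTR 4 at the left and TG 1 to TG 3 at the right of each panel, linear axes that start at 0, and bars for the confidence interval given by Cufflinks. *Wnt5a* and *Fzd10* are highest in TG 1 and TG 2, whereas *Dkk3*, *Sfrp2*, *Lgr5* and *Wif1* are highest in TG 3.

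The values of both canonical co-receptors, which join Frizzled at the cell surface, overlapped between the groups. *Lrp5* (chr19:3584825-3686564) had 15.8, 8.96, 11.6 and 12.3 FPKM in CTR and 12.2, 11.6 and 13.1 FPKM in TG papillomas. All TG values lay within the CTR range, and the log2 difference was 0.04 with a standard error of 0.20 (limma, adjusted p = 0.989). *Lrp6* had 4.56, 2.73, 3.39 and 4.26 FPKM in CTR and 3.41, 3.92 and 7.89 FPKM in TG papillomas, and only TG 3 lay outside the CTR range. Its log2 difference was 0.33 over the 7 papillomas and 0.00 without TG 3.

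Of the receptors of the non-canonical branch, *Ryk*, which encodes a receptor with an inactive kinase domain, was far above *Ror2* and *Ror1*. *Ryk* had 16.4, 10.6, 13.4 and 15.6 FPKM in CTR and 14.9, 15.4 and 16.9 FPKM in TG papillomas, with a log2 difference of 0.18 (limma, adjusted p = 0.911). *Ror2*, a receptor for WNT5A, had 0.497, 0.614, 0.488 and 1.33 FPKM in CTR and 0.406, 0.597 and 0.788 FPKM in TG papillomas. The groups overlapped and the log2 difference was -0.13 (limma, adjusted p = 0.968), so that *Ror2* did not follow the order of the *Wnt5a* values. *Ror1* stayed at 0.194 FPKM or lower.

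The secreted inhibitors bind ligands or receptors outside the cell. Their summed FPKM was 13.2, 8.52, 9.62 and 10.998 in CTR and 13.7, 13.4 and 37.5 in TG papillomas. The sum in TG 3 exceeded that of every other papilloma, while TG 1 and TG 2 lay just above CTR 1. The 3 inhibitors that entered the test, *Sfrp2*, *Dkk3* and *Sfrp1*, had log2 differences above 0, as had 60% of all genes, and these were smaller without TG 3. TG 3 was the highest papilloma for 7 of the 8 inhibitors with any value above 0, as it was for 12 of the 27 tested members and for 41.1% of all genes.

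*Dkk3* (chr7:112116019-112159057), a divergent member of the Dickkopf family, had 3.19, 3.35, 3.46 and 5.32 FPKM in CTR and 6.22, 4.92 and 10.7 FPKM in TG papillomas. All TG values except TG 2 lay above CTR 4, the highest control. The log2 difference was 0.80 with a standard error of 0.28 (limma, unadjusted p = 0.0182, adjusted p = 0.687), and the exact permutation test gave p = 0.0857. Without TG 3 the difference was 0.50 (limma, adjusted p = 0.566).

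*Sfrp1*, which encodes a Frizzled-related decoy, had 9.02, 4.16, 5.06 and 4.63 FPKM in CTR and 6.15, 6.62 and 13.0 FPKM in TG papillomas. CTR 1 exceeded TG 1 and TG 2, and the log2 difference of 0.53 (limma, adjusted p = 0.826) was 0.21 without TG 3. *Sfrp2* (chr3:83766321-83774314), of the same family, had 0.340, 0.794, 0.747 and 0.472 FPKM in CTR and 0.842, 1.65 and 10.5 FPKM in TG papillomas. All TG values lay above the CTR values, TG 1 by a narrow margin, and TG 3 was 6.36 times the next papilloma and held 80.8% of the summed TG FPKM. The log2 difference was 1.56 with a standard error of 0.62 (limma, unadjusted p = 0.0333, adjusted p = 0.705; exact permutation p = 0.0286). Without TG 3 the difference was 0.66 (limma, adjusted p = 0.491). TG 1 had a Cufflinks interval of 0.539 to 1.14 FPKM, which overlapped the 0.439 to 1.15 FPKM of CTR 2.

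*Wif1* and *Sfrp4*, below the minimum and named after their values were seen, were near 0 outside TG 3. *Wif1*, which encodes a protein that binds Wnt ligands, reached 1.20 FPKM in TG 3 and did not exceed 0.0633 FPKM elsewhere. *Sfrp4* reached 0.827 FPKM in TG 3, with 0.0385 FPKM or less elsewhere. *Sfrp2*, *Sfrp4*, *Wif1*, *Lgr5* and *Rspo3* were the 5 of 52 members (9.62%) with a TG 3 value at least 3 times that of every other papilloma. All of these but *Sfrp2* lay below the minimum of 0.5 FPKM, and the share over all genes without that minimum was not computed. Among the 27 tested members, *Sfrp2* alone (3.70%) had such a TG 3 value, against 3.11% of all tested genes. A highest papilloma of any group at 3 times or more the second highest was likewise found among the tested members for *Sfrp2* alone, against 3.4% of all genes.

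R-spondins bind LGR receptors and raise the number of Frizzled receptors on the cell surface. No member of this axis reached a mean of 0.5 FPKM, so none entered the limma test. *Lgr5* (chr10:115450314-115587780), an R-spondin receptor and a marker of hair follicle stem cells, had 0.252, 0, 0.0197 and 0.0144 FPKM in CTR and 0.0297, 0.0286 and 1.74 FPKM in TG papillomas. TG 3 held 96.8% of the summed TG FPKM, with a Cufflinks interval of 1.41 to 2.07 FPKM, and TG 1 and TG 2 lay below CTR 1. The log2 difference was 0.60 (exact permutation p = 0.457), and without TG 3 it was -0.09. 8 hair follicle epithelium markers summed to 31.3 FPKM in TG 3 and to 9.96 to 17.1 FPKM in the other papillomas, and 7 dermal papilla markers to 11.8 against 3.05 to 6.11 FPKM. The lists were not uniform, with 4 of the 8 and 5 of the 7 markers highest in TG 3.

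*Rspo1* lay between 0.0341 and 0.166 FPKM in CTR and had 0.0441, 0.241 and 0.549 FPKM in TG papillomas. *Rspo4* had 0, 0.0506, 0.0184 and 0 FPKM in CTR and 0.0762, 0.236 and 0.0580 FPKM in TG papillomas. These TG values lay above the CTR values (exact permutation p = 0.0286), but at a level where the Cufflinks intervals of TG 1, TG 3 and every CTR papilloma reached 0. *Rspo3* was listed at 0 in every papilloma except TG 3, with 0.121 FPKM, and *Rspo2* did not exceed 0.0259 FPKM. Of the 51 members given an exact permutation test, *Wnt5a*, *Sfrp2* and *Rspo4* were the 3 that reached the smallest p. The share of all genes that reached it was not computed. By a related but different measure, 4.93% of the genes tested in limma had TG values above all CTR values and 2.23% below them.

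The genes of beta-catenin and its nuclear partners overlapped between the groups. *Ctnnb1* (chr9:120933400-120960507) had 160.8, 113.0, 113.7 and 148.1 FPKM in CTR and 101.8, 110.0 and 194.2 FPKM in TG papillomas. TG 1 and TG 2 were the lowest of the 7 and TG 3 the highest, and the log2 difference was -0.03 (limma, adjusted p = 0.995). *Tcf7*, which encodes the factor TCF1, had 4.22, 3.44, 3.14 and 3.01 FPKM in CTR and 1.53, 2.44 and 3.38 FPKM in TG papillomas. TG 1 and TG 2 lay below every CTR papilloma and TG 3 among them, and the log2 difference was -0.46 (limma, adjusted p = 0.813). Without TG 3 the *Tcf7* difference was -0.69 (limma, unadjusted p = 0.0149, adjusted p = 0.333). *Lef1*, the factor known for hair shaft formation, stayed at 0.275 FPKM or lower.

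*Axin2* (chr11:108920349-108950781), a feedback inhibitor and widely used target of canonical signaling, had 0.141, 0.319, 0.437 and 0.631 FPKM in CTR and 0.468, 1.09 and 0.896 FPKM in TG papillomas. Of the 12 ways to set a TG beside a CTR papilloma, 11 had the higher value in TG, the exception being TG 1 beside CTR 4. On the log2 scale *Axin2* differed by 0.58 with a standard error of 0.30 (limma, unadjusted p = 0.0819, adjusted p = 0.801; exact permutation p = 0.114). It was 0.52 without TG 3.

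**Figure D4:**
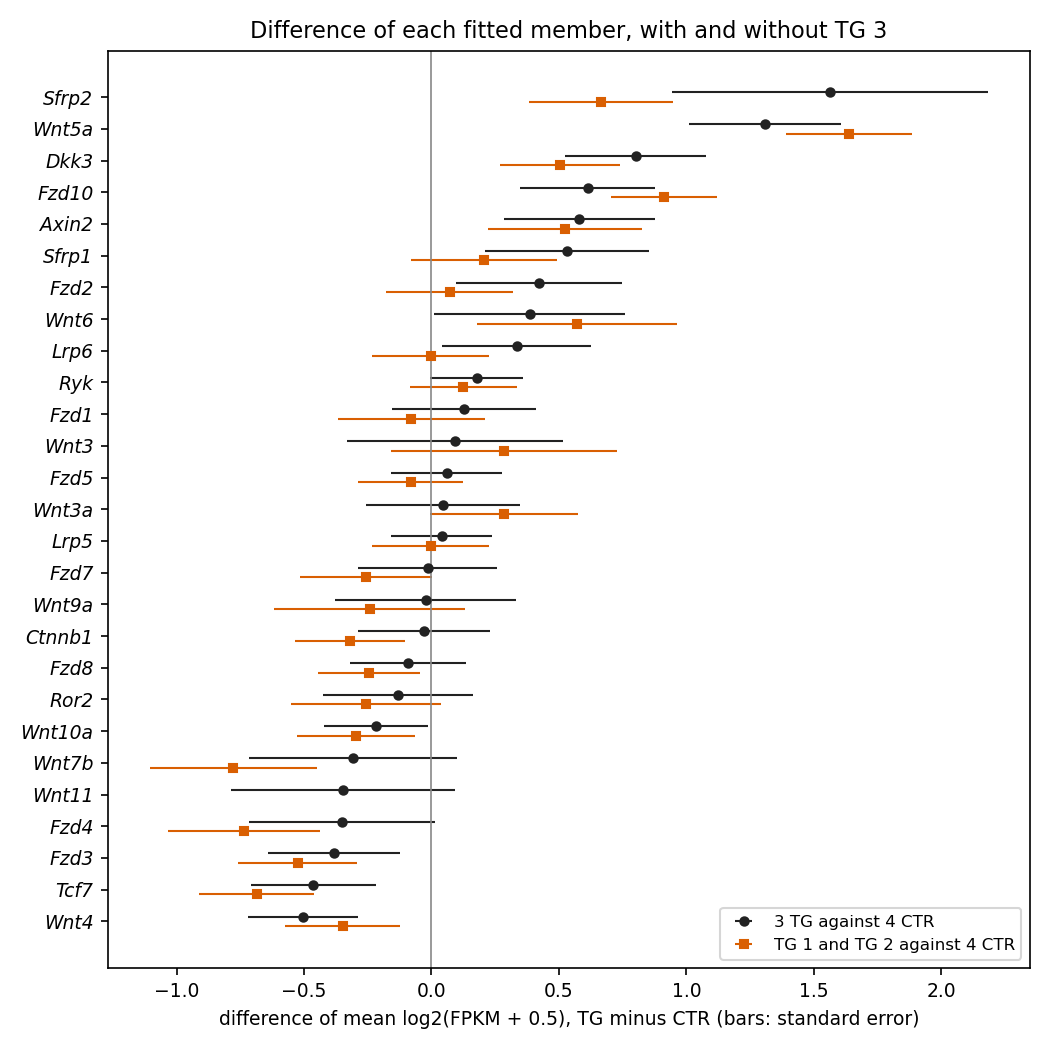
Difference of mean log2(FPKM + 0.5), TG minus CTR, for each member tested, with bars for the standard error from limma, from all 7 papillomas (circles) and without TG 3 (squares). *Sfrp2* goes from 1.56 to 0.66 without TG 3, *Wnt5a* goes from 1.31 to 1.64 and *Fzd10* from 0.61 to 0.91; *Wnt11* has no square because its mean then misses the minimum.

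Leaving out TG 3 moved several members across the range of the controls. 26 members were then tested, of which *Fzd10*, *Sfrp2* and *Wnt5a* (11.5%) had both TG values above all CTR values, against 8.97% of genes. *Ctnnb1*, *Fzd3*, *Fzd4*, *Fzd8* and *Tcf7* (19.2%) had both TG values below all CTR values, against 9.03% of genes, where 0 of 27 members did so with TG 3. At unadjusted p under 0.05 in limma, *Wnt5a*, *Fzd10* and *Sfrp2* were higher (11.5% against 5.23% of genes) and *Tcf7*, *Fzd4* and *Wnt7b* lower (11.5% against 4.35%). At adjusted p under 0.05 there were again 0 members, beside 9 genes higher (0.0751%) and 8 lower (0.0667%) of 11990. The log2 difference was above 0 for 11 of 26 members, against 45.8% of genes. The median difference of the members was -0.04 and that of all genes -0.03.

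The sequence before the transcription start is shown for 4 members whose start in RefSeq (GRCm38.p6) equals the gene start in the deposited files. They are *Fzd1* and *Fzd7*, the leading Frizzled receptors with usable values, *Sfrp2*, whose groups did not overlap, and *Axin2*, the canonical target gene. Each run holds the 250 bases before the start, 5′ to 3′ on the strand of the gene. Capitals mark the TCF/LEF motifs CTTTGA and CTTTGT on either strand.
Fzd1: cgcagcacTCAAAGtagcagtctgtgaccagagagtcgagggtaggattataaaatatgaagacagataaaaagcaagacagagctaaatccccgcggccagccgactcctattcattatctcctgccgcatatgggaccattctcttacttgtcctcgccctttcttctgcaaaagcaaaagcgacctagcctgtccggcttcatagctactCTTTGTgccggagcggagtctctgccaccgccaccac
Fzd7: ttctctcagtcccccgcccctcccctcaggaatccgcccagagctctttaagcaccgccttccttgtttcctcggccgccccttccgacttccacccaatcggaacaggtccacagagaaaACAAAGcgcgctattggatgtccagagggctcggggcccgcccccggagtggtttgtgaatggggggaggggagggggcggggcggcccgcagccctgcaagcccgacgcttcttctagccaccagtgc
Sfrp2: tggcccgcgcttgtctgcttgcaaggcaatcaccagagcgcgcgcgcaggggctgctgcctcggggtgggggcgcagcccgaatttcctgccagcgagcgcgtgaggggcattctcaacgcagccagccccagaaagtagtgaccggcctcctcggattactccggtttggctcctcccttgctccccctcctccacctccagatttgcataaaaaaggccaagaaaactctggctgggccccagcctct
Axin2: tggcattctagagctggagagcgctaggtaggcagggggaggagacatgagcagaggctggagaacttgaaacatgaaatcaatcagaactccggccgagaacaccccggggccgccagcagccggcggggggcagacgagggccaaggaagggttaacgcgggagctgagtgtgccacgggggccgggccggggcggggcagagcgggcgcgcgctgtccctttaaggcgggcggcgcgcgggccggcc

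These windows are chr5:4758217-4758466 on the minus strand for *Fzd1* and, on the plus strand, chr1:59481897-59482146 for *Fzd7*, chr3:83766071-83766320 for *Sfrp2* and chr11:108920099-108920348 for *Axin2*. *Fzd1* holds 2 matches, which begin 242 and 37 bases before the start, and *Fzd7* holds 1, which begins 129 bases before it. *Sfrp2* and *Axin2* hold 0 matches in these 250 bases, which says nothing of sites elsewhere. The log2 differences of the 4 genes were 0.13, -0.01, 1.56 and 0.58. Their GC content was 51.2%, 65.2%, 63.6% and 69.2%. RefSeq windows were at hand for 35 of the 52 members, with 43 windows in all. The TCF/LEF motifs were found in 10 of these 43 (23.3%) and in 27.6% of the windows of all genes. The NANOG core motif TAATGG was in 0 of 43 member windows and in 6.57% of all windows. Windows of 250 bases say nothing of NANOG sites elsewhere. *Wnt5a*, *Lgr5*, *Wnt10a*, *Wnt7b*, *Sfrp1* and *Dkk3* were among the members without a window and were not searched.

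Other genes of the pathway were read from the same test. Of 69 listed genes that are not members, 57 were tested, and 0 passed at adjusted p under 0.05. At unadjusted p under 0.05, 5 were higher (8.77%, against 4.86% of all genes) and 1 was lower in TG (1.75%, against 1.96%), and 3 had TG values above all CTR values (5.26%, against 4.93%). Without TG 3, 53 were tested, of which 2 were higher (3.77%, against 5.23% of all genes) and 1 was lower (1.89%, against 4.35%) at unadjusted p under 0.05. The median log2 difference of these other genes was 0.12, against 0.06 over all genes, and turned to -0.05 without TG 3, against -0.03. In the destruction complex and its Dishevelled partners, 0 of 10 tested genes had an unadjusted p under 0.05, and among the nuclear cofactors 1 of 10 did, *Tle4*. Among genes for ligand secretion and surface regulation 2 of 14 did, *Apcdd1* and *Notum*, and in the polarity and calcium branch 2 of 17, *Prickle2* and *Vangl1*. Of 10 tested target genes that are not members, *Tnfrsf19*, *Apcdd1* and *Notum* did. *Tle4*, *Apcdd1*, *Prickle2* and *Notum* are named after their values were seen.

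*Tnfrsf19*, which encodes a receptor of the tumor necrosis factor receptor family, had 0.191, 0.567, 0.284 and 0.308 FPKM in CTR and 0.635, 1.46 and 1.05 FPKM in TG papillomas. All TG values lay above the CTR values, with a log2 difference of 0.87 (limma, adjusted p = 0.653). *Vangl1*, a core gene of planar cell polarity, had 9.02, 7.001, 7.31 and 8.54 FPKM in CTR and 10.5, 9.05 and 12.7 FPKM in TG papillomas, a log2 difference of 0.40 (limma, adjusted p = 0.729) without overlap of the groups. *Notum* encodes a secreted enzyme that removes the lipid of Wnt ligands and is a canonical target. It had 1.42, 3.66, 3.97 and 2.81 FPKM in CTR and 0.196, 0.640 and 1.64 FPKM in TG papillomas. TG 3 overlapped CTR 1, and the log2 difference was -1.47 (limma, adjusted p = 0.595), or -1.89 without TG 3 (adjusted p = 0.105). *Notum* was thus lower in mean and *Axin2* higher in mean in TG, although both are listed as canonical targets. *Frzb*, the gene also called *Sfrp3*, stayed at 0.126 FPKM or lower.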

How the data were processed

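RNA-seq was done on papillomas of 4 CTR and 3 TG mice, each from a different mouse. The authors aligned single-end, strand-specific reads with TopHat 2.0.4 (Bowtie 0.12.7, SAMtools 0.1.16), using GRCm38/mm10, and estimated gene levels with Cufflinks 1.3.0. The deposited values are FPKM per gene for each papilloma, with a confidence interval and a status; FPKM are not counts, so a count test was not used. Depth is not given and was inferred from the width of the intervals as 10074859 to 15710562 reads, highest in CTR 3 and TG 1. At this depth members under 0.5 FPKM have intervals that often reach 0.

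Entries with 1 symbol were summed, and the 162 symbols with the status FAIL in any papilloma, *Fzd6* among them, were left out. Each member had 1 entry. Values were put on the scale log2(FPKM + 0.5), on which fold changes of low genes are understated. Apart from the alternatives with upper-quartile scaling and quantile normalization, no further scaling between papillomas was applied. Genes that averaged 0.5 FPKM or more were fitted together in limma 3.58.1 (R 4.3.3) with a mean-variance trend, 2-sided, with Benjamini-Hochberg adjustment and a threshold of 0.05. Single members were also compared by exact permutation over 35 splits (Python 3.11.15, pandas 2.3.3). The fit was tested on simulated data. 19 alternatives were tried.

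The members, roles and lists were chosen with earlier results of these data known. Named were members with a mean of 0.5 FPKM or more whose groups did not overlap or whose highest papilloma was at least 3 times the next, members whose unadjusted p was under 0.05, the 3 most abundant of the ligand, Frizzled, inhibitor and R-spondin roles, all members of the other roles, and *Wnt5a* and *Lgr5*, 25 in all. The study measured *Wnt5a* and *Lgr5* by qRT-PCR and reported both as higher in TG papillomas. Its own differential test of the RNA-seq also listed *Wnt5a* as higher. Other pathway genes were named where the groups did not overlap at unadjusted p under 0.05, and *Frzb*. Further members are named for their position, for the FPKM minimum or after their values were seen, as stated beside them. Promoter windows came from RefSeq, and 36 of the 43 member windows had the bases after the start in a GENCODE transcript of the gene.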

Additional observations from a re-analysis of the deposited data

Results flagged for a closer look

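In 24 named members the 4 CTR papillomas were searched for a value that stood apart, by Dixon's ratio of the gap to the nearest value over the whole range. Chance passes this in about 1 of 20 groups, and 3 members passed. *Dkk3* was 5.325 FPKM in CTR 4, where the other controls lay between 3.19 and 3.46 FPKM. *Lgr5* was 0.2521 FPKM in CTR 1, above both TG 1 and TG 2, with 0.0197 FPKM or less in the remaining controls. *Ror2* was 1.328 FPKM in CTR 4, against 0.488 to 0.614 FPKM in the other controls. The groups of 3 TG papillomas were not searched.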

How the results depend on the processing

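Over the alternatives, 331 values of single members kept their direction and side of the threshold, 28 changed sign and 1 passed the threshold. Limma without a trend left 0 members lower at unadjusted p under 0.05, quantile normalization gave 3, the replicate block gave 0 and sample quality weights gave 7, against 1. The share of all genes at unadjusted p was not computed in these settings, so the counts cannot be read as particular to the members. Quality weights, which gave TG 3 the lowest weight (0.272), also called 49 genes higher and 36 lower at adjusted p under 0.05, with 1 member among the higher, *Wnt5a* (log2 difference 1.46, adjusted p = 0.0409; over all alternatives 0.0409 to 0.999). With the lower-depth papillomas, which leave out CTR 3 and TG 1, 1 gene was higher at adjusted p, 2 members were higher at unadjusted p, and 5 members lay above and 2 below all CTR values. The shares over all genes for these member counts were not computed, and smaller groups separate more easily.

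Leaving out 1 papilloma at a time gave 0 to 9 genes higher and 0 to 8 lower at adjusted p, both largest without TG 3, and 0 to 3 members lower at unadjusted p, with 0 without CTR 2, CTR 3, CTR 4 or TG 2 and 3 without TG 3. Members with every TG value above CTR then numbered 2 to 4, with 4 without CTR 4, TG 1 or TG 2, and below CTR 0 to 5, with 1 without CTR 1, CTR 3 or TG 1 and 5 without TG 3. For these member counts, shares over all genes were computed only without TG 3. They were 4.35% lower at unadjusted p in limma, 8.97% above all CTR values and 9.03% below them. Members near 0 turned sign. Ranges over single papillomas left out were -0.32 to 0.14 for *Ctnnb1*, -0.0796 to 0.46 for *Fzd1*, -0.26 to 0.17 for *Fzd7*, -0.0924 to 0.17 for *Lrp5*, -0.0037 to 0.55 for *Lrp6*, -0.26 to 0.0744 for *Ror2* and -0.24 to 0.37 for *Wnt9a*. With the lower-depth papillomas *Ctnnb1* was 0.0717, *Fzd7* 0.0619, *Wnt11* 0.0303 and *Wnt7b* 0.11. *Lrp5* was -0.0330 with quantile normalization, -0.0578 with quality weights and -0.0356 with upper-quartile scaling. The cause was not tested.

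The labels number the replicates alike in both groups, but deviations of same-numbered papillomas correlated at -0.186, 0.0431 and -0.146, which gave no sign of a pairing by number. So few papillomas cannot exclude one. With the replicate block, in which CTR 4 has no partner, *Ctnnb1* was 0.0249, *Fzd7* 0.0090, *Ror2* 0.0744 and *Wnt9a* 0.16. The median of the members lay between -0.13 and 0.15 over all alternatives. *Lgr5*, *Lef1*, *Ror1*, *Rspo1* and *Rspo4* were fitted with no filter on low values only. With 4 and 3 papillomas no exact p can be under 0.0286.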
